A study of Canis lupus familiaris with 6 samples.

Results

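Integrins are the receptors by which epithelial cells hold the basement membrane, and laminins, collagens and fibronectin are the proteins they hold. A receptor is a pair of an alpha and a beta chain, a laminin is a trimer of an alpha, a beta and a gamma chain, and a collagen is a triple helix of like or different chains, so many of these proteins depend on several genes. Kidney tubule epithelium rests on laminin and type IV collagen, and binds them mainly through receptors that contain ITGB1. The genes described here were those of the array whose names begin with ITGA, ITGB, LAMA, LAMB, LAMC or COL and a digit, together with FN1 (fibronectin), SPARC, THBS1 (thrombospondin), TNC (tenascin) and LOX, a collagen crosslinking enzyme. They came to 73 of the 34378 different names on the array, with 148 of its 43603 probes, and the probe with the highest mean signal was kept for each gene. Names of the ITGB1BP kind were left out. The name rule also took in COL4A3BP, a ceramide transfer protein and no collagen, and ITGBL1, a relative of the beta chains. A further 12 probes are described as integrin, laminin or collagen chains but carry an accession for a name, and were not members. ITGB4 and COL18A1 were not analysed here, since no probe carries these names.

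The cells came from MDCK (Madin-Darby canine kidney), a line of dog kidney epithelium, with a tetracycline-inducible (pTR) GFP-tagged RasV12, an oncogenic form of Ras. RasV12 cells were grown alone (3 samples) or mixed with normal MDCK cells (3 samples) on dishes coated with type I collagen, all were given tetracycline for 24 h, and RNA came from the cells sorted by their GFP. Each sample was hybridised to a 1-colour Agilent canine array, and the comparison asks how normal neighbours alter expression in RasV12 cells. The sample titles and the paper give both cell types without mutant β-catenin, but the extraction protocol in the labels speaks of RasV12 cells that carry mCherry-β-catenin Δ131. The label of mixed replicate 2 gives 100 MDCK cells to 1 RasV12 cell, whereas the other mixed samples give 10 to 1. The labels do not say that the 3 samples of a group were separate cultures, so p-values measure the spread between these samples, which may be technical. All alone arrays lay on one slide and all mixed arrays on the other, so slide and culture cannot be told apart. In sorted bulk samples, fewer cells of a type and less RNA per cell cannot be told apart either.

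Sets of probes show where the results below are read. The capitals mark the longest run of whole codons without a stop codon in the 3 forward frames of the probe, a description of its letters alone. In the LAMB3 and the first ITGA1 probe 2 frames hold a run of that length, and the capitals mark the first. All coordinates are those of the array annotation on canFam3, which does not say in which exon a probe lies. The ITGB8 probe (chr14:34443725-34443784, plus strand) is shown because its gene had the largest difference of the group, and the LAMA3 (chr7:64406126-64406185, minus strand) and LAMB3 probes (chr7:8272736-8272795, minus strand) because both genes encode chains of the same laminin. The pair of ITGA1 probes (chr4:62442981-62443040 and chr4:62299593-62299652, both minus strand) is shown because they gave different results.
ITGB8: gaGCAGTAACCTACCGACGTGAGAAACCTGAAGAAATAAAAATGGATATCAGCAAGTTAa
LAMA3: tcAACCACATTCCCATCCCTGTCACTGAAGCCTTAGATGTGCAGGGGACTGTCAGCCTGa
LAMB3: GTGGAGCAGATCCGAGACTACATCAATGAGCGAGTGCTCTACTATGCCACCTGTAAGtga
ITGA1, first probe: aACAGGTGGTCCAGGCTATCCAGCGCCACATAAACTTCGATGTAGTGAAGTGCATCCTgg
ITGA1, second probe: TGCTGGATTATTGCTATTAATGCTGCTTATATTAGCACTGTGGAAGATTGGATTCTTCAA

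Signals are given as scaled intensity, the scanner's processed signal after each array was brought to the same 75th percentile, and differences as log2 of mixed over alone with the standard error of limma's fit. Before scaling, the 75th percentile was 592 to 699.6 units of intensity, and the share of probes well above background was 60.8% to 66.4%. Testing was restricted to probes that the scanner software marked as well above background on every alone array or every mixed array, and a probe is said to be called if its Benjamini-Hochberg adjusted p over all 26535 probes tested was under 0.05. Of the 73 genes, 45 could be tested. Of the 28 others, 18 reached that mark on 0 of the 6 arrays and 10 on 1 to 3 of them. SPARC and COL6A5 passed through the alone group, with 2 of the 3 mixed arrays above background, and the other 43 were above it on all 6 arrays.

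In RasV12 cells mixed with normal cells, 10 of the 45 genes were lower and 1 was higher. The lower ones were the laminin chain LAMA3, the integrins ITGB1, ITGA5, ITGA6, ITGA1 and ITGB3, and the collagens COL4A1, COL4A2, COL12A1 and COL5A2, with losses of 1.23- to 2.004-fold. ITGA1 was called at 1 of its 2 tested probes, and which transcript that probe measures was not tested. Its other probe gave a log2 difference of -0.0046, and ITGA1 enters these counts only by the name of the probe kept. ITGB8 was the gene that rose, 3.06-fold. The called share was 24.4% of the tested genes, where 11.2% of all tested probes were called, 5.5% higher and 5.72% lower. For lower calls the members' share was 22.2%. The median log2 difference was -0.13 over the 45 genes and -0.0037 over all tested probes, with 29 genes below and 16 above 0. In 20 of the 45 genes the alone and mixed values did not overlap, 13 lower and 7 higher. Over all tested probes 37.2% did not overlap, 19.4% lower and 17.8% higher. These counts had no test of their own, and chains of one protein were counted as separate genes.

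The count rests on single arrays. With limma, it was 0 when alone replicate 3 or mixed replicate 2 was left out. It was 1 (ITGB8) when alone replicate 2 or mixed replicate 3 was left out, 10 without mixed replicate 1 and 17 in the absence of alone replicate 1. At an unadjusted p under 0.05, limma gave 13 and 15 of the 45 genes in the 2 fits with 0 calls, against 20 with all arrays. Over the whole array the called probes numbered 7 to 7335 in these 6 fits, against 2978 with all arrays. All 11 called genes kept their direction in all 15 alternatives run for each, but most of these could not reverse it. The groups of these genes did not overlap, so leaving out a single array could not change the sign. The methods' t-test, the replicate block and the other filters share the log2 difference of the main fit. Alone replicate 1 was the lowest alone array for 22 and the highest for 18 of the 45 genes, and so lay between the other two for 5.

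**Figure D1:**
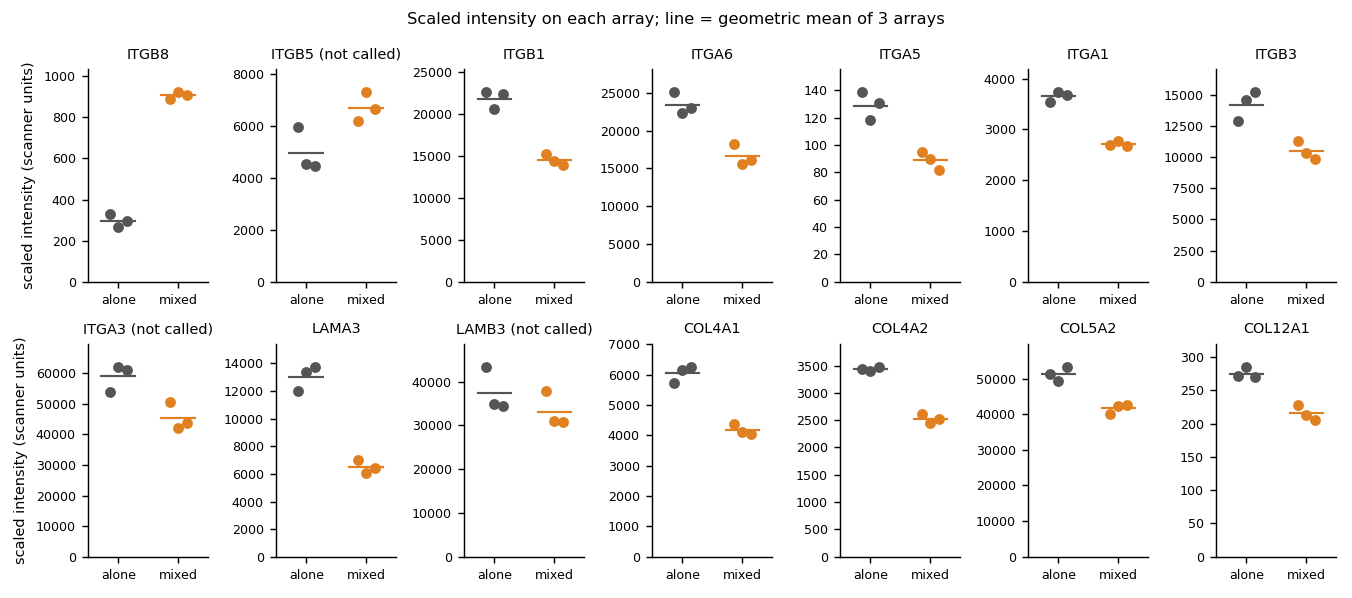
Scaled intensity in scanner units (each vertical axis starts at 0) of the 11 called genes and of ITGB5, ITGA3 and LAMB3 on the 3 alone (grey) and 3 mixed arrays (orange), in replicate order from left to right, with the geometric mean of each group as a line. The groups do not overlap for any gene but LAMB3.

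Among the beta chains, ITGB8 rose while ITGB1 and ITGB3 fell. ITGB8, which pairs with ITGAV in a receptor that binds latent TGF-beta, read 332, 265 and 296 on the alone arrays and 888, 923 and 910.3 on the mixed arrays. All mixed arrays were far above all alone arrays. The log2 difference was 1.61 (SE 0.0964, adjusted p = 0.00492), and this was the smallest adjusted p of the 45 genes. ITGB8 has 1 probe on the array, so no second probe bears on it.

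ITGB1, the beta chain of most receptors for laminin, collagen and fibronectin, read 22573, 20503 and 22405 on the alone arrays and 15243, 14354 and 13958 on the mixed arrays. All 3 mixed arrays were below all 3 alone arrays, and the log2 difference was -0.59 (SE 0.0771, adjusted p = 0.016). Its second probe gave -0.57 (adjusted p = 0.0139), within 0.0136 of the first. ITGB3, which with ITGAV binds vitronectin and fibronectin, read 12887, 14570.0 and 15192 on the alone arrays and 11309.6, 10318 and 9844 on the mixed arrays. The groups did not overlap, the log2 difference was -0.44 (SE 0.0952, adjusted p = 0.0371) and its second probe gave -0.51 (adjusted p = 0.047). With the replicate number as a block neither probe was called (adjusted p = 0.0657 and 0.0821).

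The other beta chains were not called at the probe kept. ITGB5, which also pairs with ITGAV, read 5977, 4544 and 4446 on the alone arrays and 6188, 7308 and 6669 on the mixed arrays. Each mixed value was above each alone value, but alone replicate 1 lay close below mixed replicate 1, and the log2 difference of 0.44 (SE 0.135) missed the threshold (adjusted p = 0.0828). Of its 3 other probes, 2 were called, with log2 differences of 0.48 (adjusted p = 0.0259) and 0.55 (adjusted p = 0.0324). These 2 probes share 39 bases, and the second of them was not called with the replicate block (adjusted p = 0.0562). The remaining one gave 0.26 (adjusted p = 0.145). ITGB6, an epithelial partner of ITGAV, differed by 0.04 (SE 0.0700, adjusted p = 0.75), and by -0.12 when arrays were scaled to the spike-in controls. ITGB2, the beta chain of leukocyte integrins, was at 54.1 to 58.8 alone and 61.7 to 73.4 mixed (log2 difference 0.27, adjusted p = 0.0976).

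Among 9 tested alpha chains, 3 were lower (33.3%, where 5.72% of all tested probes were) and 8 had a difference below 0, with a median of -0.21. ITGA1, among these 3, was called at 1 of its 2 tested probes, and the share counts it by the name of that probe. ITGA5, the alpha chain of the classical fibronectin receptor, read 139, 118 and 131 on the alone arrays and 95.1, 89.9 and 82.1 on the mixed arrays. The mixed arrays were all lower (log2 difference -0.54, SE 0.0946, adjusted p = 0.0243). ITGA6, a laminin receptor chain that pairs with ITGB1 or ITGB4, read 25078, 22328 and 22925 on the alone arrays and 18215, 15639 and 16154 on the mixed arrays. Replicate 1 was the highest array in both groups, and the groups did not overlap (log2 difference -0.49, SE 0.0903, adjusted p = 0.0258). Its second probe, which shares 52 bases with the first, gave -0.52 (adjusted p = 0.0233), and a separate one gave -0.45 and missed the threshold (adjusted p = 0.056).

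ITGA1, a collagen receptor chain, was lower at the probe kept, which read 3543, 3733 and 3667 on the alone arrays and 2700.5, 2761 and 2675 on the mixed arrays. The spread within each group was small, with an SD of 0.0384 alone and 0.0235 mixed on the log2 scale, and the log2 difference was -0.43 (SE 0.0656, adjusted p = 0.0193). The second probe read 583, 463 and 481 on the alone arrays and 539, 512 and 465 on the mixed arrays. Here the groups overlapped, and the log2 difference was -0.0046 (SE 0.113, adjusted p = 0.983). The probes, printed above, lie 143 kb apart. In the RefSeq table of the UU_Cfam_GSD_1.0 assembly the gene PELO lies within the ITGA1 interval, and 0 probes of the array are named PELO. Which transcript the first probe measures was not tested, so its difference is that of the probe and may not be that of ITGA1.

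The remaining alpha chains were not called. ITGA3, the main laminin receptor alpha chain of many epithelia, read 53957, 62032 and 61195 on the alone arrays and 50587, 42231 and 43633 on the mixed arrays. All mixed arrays were below all alone arrays, at a log2 difference of -0.38 (SE 0.101, adjusted p = 0.0600), and its second probe gave -0.56 (adjusted p = 0.0608). ITGA2, the collagen receptor chain of epithelium, read 2614, 2431 and 2466 on the alone arrays and 2712, 2010.2 and 1979 on the mixed arrays. Mixed replicate 1 was above every alone array and the other mixed arrays below them (log2 difference -0.18, SE 0.133, adjusted p = 0.401). ITGAV, the common partner of ITGB3, ITGB5, ITGB6 and ITGB8, overlapped between the groups (log2 difference -0.13, SE 0.104, adjusted p = 0.437), and its 3 probes lay between -0.16 and -0.05. ITGA2B, ITGA7 and ITGAE also overlapped, with differences from -0.21 to 0.00. ITGAL, ITGAX and ITGAD of leukocytes and ITGA8 and ITGA11 were above background on 0 of the 6 arrays, ITGA4 on 1 and ITGAM on 2 alone arrays.

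The differences of chains that form a receptor were compared within arrays, as the change in the log2 ratio of 2 probes. Over 7 such pairs of integrin, laminin and collagen genes an exact permutation test (two-sided) can go no lower than p = 0.1 with 3 arrays against 3, and 0.175 after Benjamini-Hochberg adjustment. The ratio of ITGB8 to ITGAV moved by 1.74 (SE 0.0875, exact permutation p = 0.1, adjusted 0.175), and that of ITGB5 to ITGAV by 0.57 (SE 0.109, exact permutation p = 0.1, adjusted 0.175), both without overlap of the groups. The ratio of ITGB3 to ITGAV overlapped between the groups, at -0.31 (SE 0.168, exact permutation p = 0.3, adjusted 0.3). The ratio of ITGA6 to ITGB1 overlapped as well, at 0.09 (SE 0.053, exact permutation p = 0.2, adjusted 0.28).

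**Figure D2:**
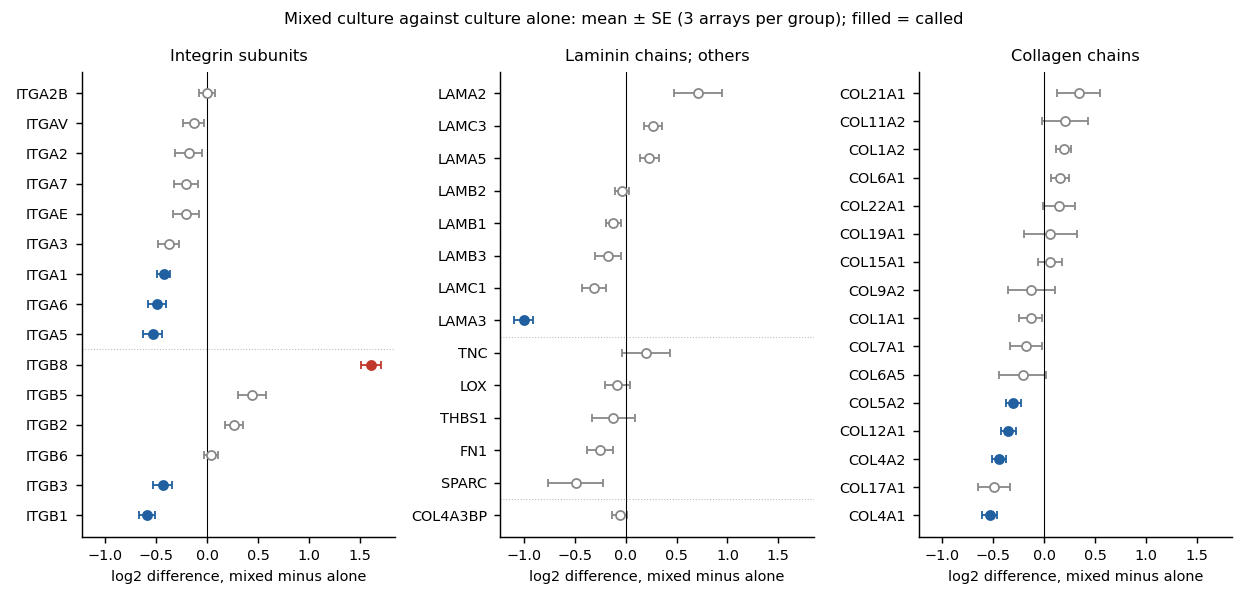
Log2 difference between mixed and alone (3 arrays each) for the 45 tested genes, as the mean and standard error of limma's fit. Filled points were called (red higher, blue lower), open points were not, and dotted lines part alpha from beta chains and laminins from the other genes.

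Of the 8 tested laminin chains, LAMA3 fell and the others were not called (12.5% called, near the 11.2% of all tested probes). LAMA3 belongs, with LAMB3, to the laminin that anchors epithelial cells at hemidesmosomes. LAMA3 read 11969, 13362 and 13737 on the alone arrays and 7008, 6094 and 6395 on the mixed arrays. Each mixed array lay far below each alone array, and the log2 difference was -1.003 (SE 0.0907, adjusted p = 0.0103), 2.004-fold lower. It has no second tested probe.

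LAMB3, the beta chain of that laminin, read 43316, 34790.5 and 34509 on the alone arrays and 37873, 30960.4 and 30849.8 on the mixed arrays. Replicate 1 was the highest array in each group, mixed replicate 1 lay above alone replicates 2 and 3, and the log2 difference was -0.17 (SE 0.129, adjusted p = 0.399). Each mixed array lay below the alone array of the same replicate number, and with the replicate block LAMB3 was still not called (adjusted p = 0.143). Its 3 probes lay between -0.22 and -0.17, with 0 called. The LAMA3 to LAMB3 ratio moved by -0.83 on the log2 scale (SE 0.174), without overlap of the groups (exact permutation p = 0.1, adjusted 0.175).

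The chains of the more widespread laminins were not called. LAMA5, the main alpha chain of mature tubule basement membrane, read 784, 728 and 654 on the alone arrays and 855, 877 and 808 on the mixed arrays. All mixed arrays were above all alone arrays (log2 difference 0.23, SE 0.0901, adjusted p = 0.136), and with spike-in scaling the difference was 0.07. The LAMA3 to LAMA5 ratio moved by -1.24 (SE 0.152, exact permutation p = 0.1, adjusted 0.175). LAMC1, the common gamma chain, read 1617, 1993 and 2133 on the alone arrays and 1602, 1519.7 and 1482 on the mixed arrays. The mixed arrays were all lower (log2 difference -0.31, SE 0.115, adjusted p = 0.125). LAMB1, a common beta chain, overlapped between the groups at the probe kept (log2 difference -0.12, SE 0.0772, adjusted p = 0.331). Its 3 tested probes disagreed in size, from -0.67 to -0.12, with 0 called. LAMB2 overlapped as well at the probe kept (log2 difference -0.04, adjusted p = 0.767). LAMA2 and LAMC3 had low intensities, and all their mixed values were above all alone values, by 0.71 (SE 0.236, adjusted p = 0.0988) and 0.27 (SE 0.0899, adjusted p = 0.1). LAMA4 and LAMB4 were above background on 0 of the 6 arrays.

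Of 34 collagen chain genes, 16 were tested, and 4 were lower with 0 higher (25% called, where 11.2% of all tested probes were). COL4A1 and COL4A2, neighbours on chromosome 22, encode the chains of the main type IV collagen network of basement membranes. COL4A1 read 5732, 6168 and 6254 on the alone arrays and 4379, 4114 and 4040.0 on the mixed arrays. The groups were apart (log2 difference -0.53, SE 0.0746, adjusted p = 0.0176), and the second probe gave -0.52 (adjusted p = 0.0169). COL4A2 read 3436, 3393 and 3472 on the alone arrays and 2620.3, 2445 and 2515 on the mixed arrays. It too had no overlap, and the log2 difference was -0.44 (SE 0.0667, adjusted p = 0.0193), and its 3 tested probes were all below 0, from -0.74 to -0.44, with 2 called. The ratio of COL4A1 to COL4A2 moved by -0.09 (SE 0.0444, exact permutation p = 0.3, adjusted 0.3). Of the other type IV chains, COL4A3, COL4A4 and COL4A5 were above background on 0 of the 6 arrays and COL4A6 on 3.

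COL5A2, a chain of a fibrillar collagen, read 51415, 49385 and 53241 on the alone arrays and 40186, 42188 and 42512 on the mixed arrays. This was the smallest difference of the called genes, -0.30 (SE 0.0698, adjusted p = 0.0425), and its 4 probes lay between -0.43 and -0.30 with 2 called. COL12A1, a collagen that binds to the surface of fibrils, read 271, 285 and 270.0 on the alone arrays and 228, 213 and 206 on the mixed arrays. Its mixed arrays were all lower (log2 difference -0.35, SE 0.0734, adjusted p = 0.0337), and its 3 tested probes lay between -0.47 and -0.25 with 2 called. With the replicate number as a block neither gene was called at the probe kept (adjusted p = 0.0609 for COL5A2 and 0.0521 for COL12A1), nor was the other called COL5A2 probe (adjusted p = 0.0521).

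COL17A1, the transmembrane collagen of hemidesmosomes, read 190.4, 269.6 and 283 on the alone arrays and 172, 166 and 183 on the mixed arrays. The mixed arrays were all below the alone arrays, but alone replicate 1 was close to mixed replicate 3, and the log2 difference of -0.49 (SE 0.157) was not called (adjusted p = 0.0889). Without alone replicate 1 it was called, at -0.67 (adjusted p = 0.00615). COL1A1, the main chain of type I collagen, with which the dishes were coated, overlapped between the groups at the one probe above background (log2 difference -0.13, SE 0.111, adjusted p = 0.455), and its 3 other probes were above background on 0 arrays. COL1A2 read 611 to 651 alone and 695 to 752 mixed (log2 difference 0.19, SE 0.0707, adjusted p = 0.124), and its 5 tested probes lay on both sides of 0. COL3A1 was above background on 0 of the 6 arrays. COL2A1 was not tested at the probe kept. Another COL2A1 probe passed the filter through the alone group only, with 1 of the 3 mixed arrays above background, and read 16.5 to 37.7 alone and 8.93 to 13.9 mixed. Its call as lower (adjusted p = 0.0494) is thus against a group mostly at background, so the size of its difference was not measured, and it was not called with spike-in scaling (adjusted p = 0.0646).

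None of the 5 glycoprotein and crosslinker genes was called. FN1 read 3614, 3099.7 and 3403 on the alone arrays and 3364, 2508 and 2658 on the mixed arrays. Mixed replicate 1 lay within the alone range and the other mixed arrays below it (log2 difference -0.26, SE 0.129, adjusted p = 0.227). Its 3 other tested probes gave -0.42, -0.43 and -0.42, with adjusted p values of 0.083, 0.0906 and 0.372. THBS1, a secreted protein that binds integrins and activates TGF-beta, read 11186, 18249.6 and 19369 on the alone arrays and 13593, 15167 and 14925 on the mixed arrays. Alone replicate 1 was the lowest of the 6 arrays, and the difference was -0.12 (SE 0.208, adjusted p = 0.73). Without that array it was -0.37 and called lower (adjusted p = 0.0267). SPARC, a collagen-binding glycoprotein, read 23.5 to 28.7 alone and 12.2 to 24.8 mixed (log2 difference -0.49, SE 0.27, adjusted p = 0.261). TNC differed by 0.20 (SE 0.233, adjusted p = 0.594) and LOX by -0.08 (SE 0.121, adjusted p = 0.677), with overlapping groups.

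**Figure D3:**
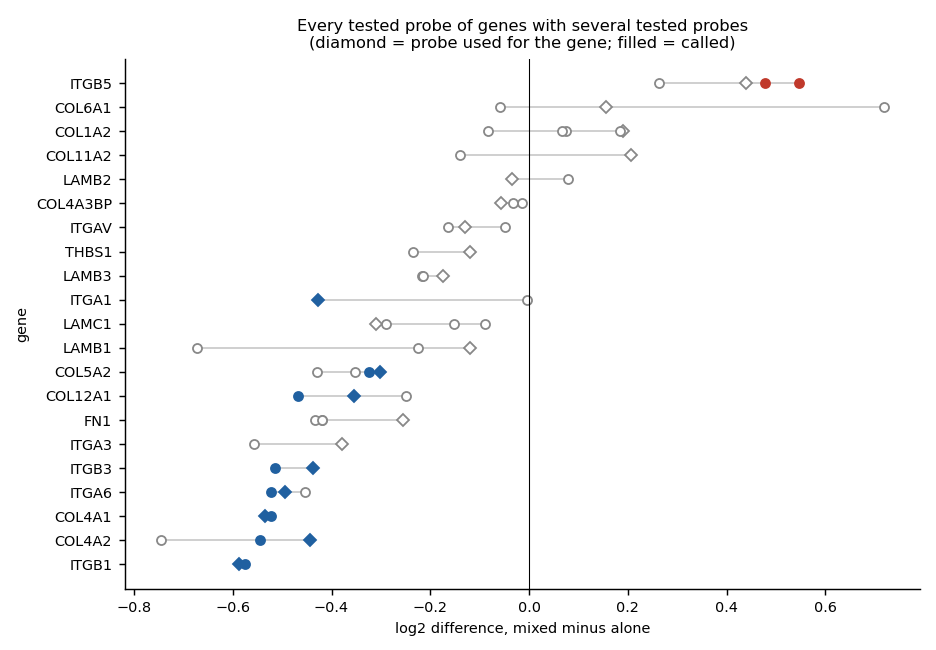
Log2 difference between mixed and alone for every tested probe of the 21 genes with 2 or more of them, one row per gene. Diamonds are the probes kept, and filled points were called (red higher, blue lower). The ITGA1 pair and the COL6A1 and LAMB1 probes lie far apart, whereas the ITGB1 and COL4A1 pairs lie close together.

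Over all 86 tested probes of the group, 18 were called lower, that of COL2A1 among them, and 3 higher. Of all tested probes of the array, 5.72% were called lower and 5.5% higher. Of the 21 genes with several tested probes, 17 had all of them on one side of 0. The 4 others, COL11A2, COL1A2, COL6A1 and LAMB2, had 0 called probes. For COL6A1, a chain of the beaded-filament collagen, the probes ran from -0.06 to 0.72. Of the 11 calls, 3 (ITGB8, LAMA3 and ITGA5) rest on genes with no second tested probe.

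Scaling shifts all these values together. The spike-in controls, RNA added in equal amount to each labelling, were 0.10 to 0.24 higher on the mixed slide at the 8 of 10 probes above background. Scaling to them lowered the median of all tested probes by 0.16, and 7 of the 11 genes were then called: ITGB8, LAMA3, ITGB1, ITGA5, ITGA6, COL4A1 and COL4A2. ITGB3, ITGA1, COL12A1 and COL5A2 were not. The log2 difference of ITGB8 was then 1.45 and that of LAMA3 -1.16, and the median over the 45 genes was -0.29, with 35 below 0.

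**Figure D4:**
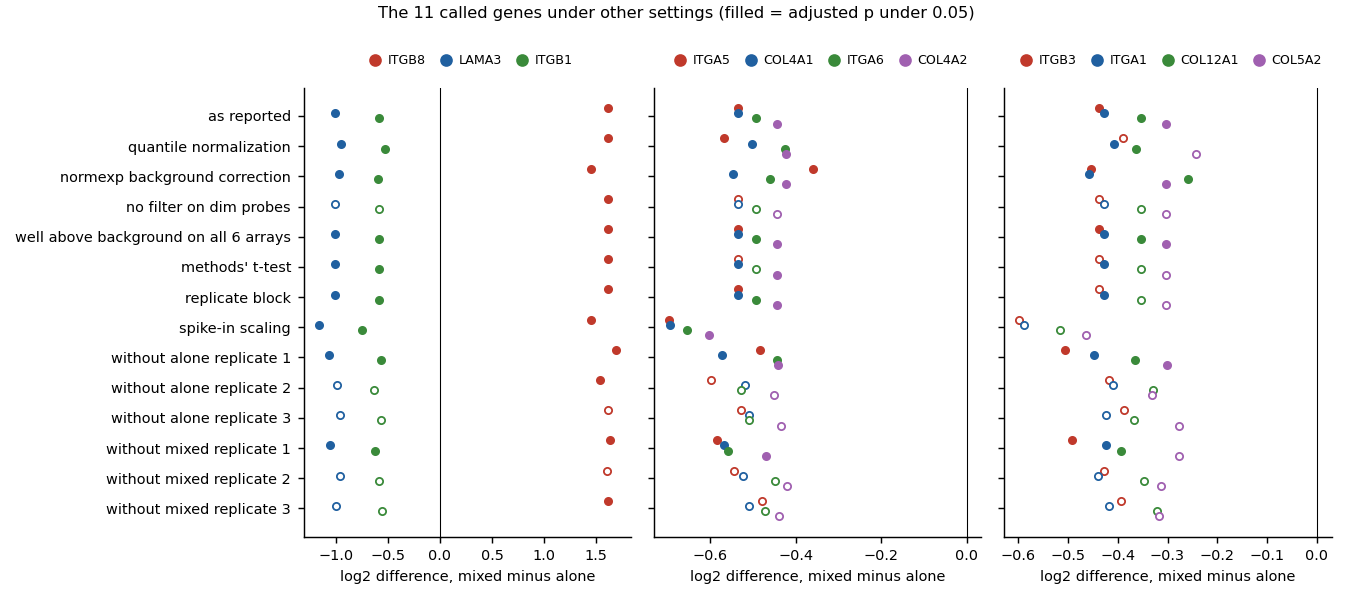
Log2 difference between mixed and alone of the 11 called genes as reported and under 13 other settings (rows), with filled points for an adjusted p under 0.05. All points stay on the same side of 0, and most points of the rows without alone replicate 2 or 3 and without mixed replicate 2 or 3 are open. Since the groups do not overlap for these genes, leaving out a single array could not move a point across 0.

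The genes around these proteins were taken from 5 lists: cytoplasmic adhesion complex, basement membrane partners, collagen processing, other secreted matrix proteins and other matrix receptors. Of 90 genes listed, 74 were on the array and 56 were tested, with 5 called higher and 6 lower, 19.6% where 11.2% of all tested probes were called. Their median log2 difference was -0.07. With limma, the count was 0 when any of alone replicates 2 and 3 and mixed replicates 2 and 3 was left out, 11 when mixed replicate 1 was, and 21 when alone replicate 1 was.

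In the adhesion complex, which couples integrins to actin, 1 of 16 tested genes was called (6.25%, against 11.2% of all tested probes), TLN2 (talin), which read 183, 172 and 176 on the alone arrays and 255, 245 and 282 on the mixed arrays. Its groups did not overlap (log2 difference 0.55, SE 0.0808, adjusted p = 0.0183), but its other 2 tested probes gave 0.11 and -0.03 and were not called. Of the 16, 12 were below 0, and 8 of the 16 had all mixed arrays lower, whereas 19.4% of all tested probes had. In collagen processing, 2 of 18 were called, each lower (11.1%, near the 11.2% of all tested probes). P4HA1, a prolyl hydroxylase of the procollagen helix, read 1757, 1619.7 and 1634 on the alone arrays and 1189, 1287 and 1359.7 on the mixed arrays (log2 difference -0.39, SE 0.0815, adjusted p = 0.035), and its 3 other probes lay between -0.52 and -0.39 with 2 called. FKBP10, a collagen chaperone, differed by -0.28 (SE 0.0691, adjusted p = 0.0476), and its second probe gave -0.26 and was not called (adjusted p = 0.083).

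Of the 5 tested basement membrane partners, FRAS1, which links epithelium to the membrane, read 59.0, 65.8 and 66.6 on the alone arrays and 40.0, 45.0 and 43.2 on the mixed arrays. It was lower on all mixed arrays (log2 difference -0.58, SE 0.0854, adjusted p = 0.0184). NTN4, a netrin that binds laminin, read 28.6, 26.2 and 29.0 on the alone arrays and 35.6, 55.2 and 52.3 on the mixed arrays. It was higher on all mixed arrays, at low intensity (log2 difference 0.75, SE 0.171, adjusted p = 0.0417). Among 9 other secreted matrix genes, SPP1 (osteopontin), a ligand of ITGAV integrins, read 31432, 26788 and 28141 on the alone arrays and 50184, 50619.5 and 52591 on the mixed arrays. Its mixed values were all well above the alone values (log2 difference 0.83, SE 0.0835, adjusted p = 0.0125). The second SPP1 probe gave 0.80, but it shares most of its bases with the first. FBLN5, an elastic fibre protein, was higher by 0.67 (SE 0.0706, adjusted p = 0.0131), and its second probe gave 0.62 (adjusted p = 0.0199). FSTL1, a secreted relative of SPARC, differed by -0.55 (SE 0.0976, adjusted p = 0.0243), but its second probe gave -0.35 and was not called (adjusted p = 0.109).

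Among 8 tested matrix receptors that are not integrins, 3 were called (37.5%, where 11.2% of all tested probes were). CD44, the hyaluronan receptor, read 1079.6, 1327 and 1417 on the alone arrays and 768, 719 and 721 on the mixed arrays. Its mixed arrays were all lower (log2 difference -0.78, SE 0.114, adjusted p = 0.0183). The collagen receptor kinases went opposite ways, DDR1 by -0.30 (SE 0.0708, adjusted p = 0.0438) and DDR2, at low intensity, by 0.45 (SE 0.0839, adjusted p = 0.0263). The other DDR1 probes gave -0.35 and -0.18 and were not called (adjusted p = 0.0809 and 0.382). With the replicate block, NTN4 (adjusted p = 0.0537), P4HA1 (0.0586), FKBP10 (0.075) and DDR1 (0.0657) were not called, whereas PXN (paxillin, of the adhesion complex) and GPC1 (glypican, of these receptors) were called lower (adjusted p = 0.0499 and 0.0361).

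Epithelial markers were present throughout. All 9 epithelial markers measured, CDH1, EPCAM, KRT18, KRT19, CDH16, PAX8, TJP1, CLDN2 and OCLN, were well above background on all 6 arrays, with summed scaled intensities of 433779 to 541794 alone and 506906 to 561256 mixed. Of these CLDN2, a claudin of leaky tubules, was the one called, higher by 2.49 (adjusted p = 0.0103). Of 9 fibroblast and mesenchymal genes, 6 were above background on all 6 arrays and PDGFRA on 0. CDH2 (N-cadherin) was the one called, lower with a log2 difference of -1.25 (adjusted p = 0.0434). LUM, THY1 and PDGFRB read higher on all mixed arrays and were not called, with log2 differences of 0.31, 0.32 and 0.12, and the median of the 6 tested was 0.22. The sums were 304018 to 343502 alone and 289125 to 301261 mixed, of which VIM made up the largest part. The endothelial CDH5 and TEK and the leukocyte PTPRC were above background on 0 arrays. The sums were 3210 to 4658 alone and 3500 to 4714 mixed over 5 endothelial genes, and 1030.5 to 1137 alone and 1116 to 1180.0 mixed over 6 leukocyte genes.

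Output genes of the Ras-MAPK pathway were also among those called. Of 15 on the array, all tested, FOSL1, EPHA2, CCND1 and EREG were lower and EGR1 higher, 33.3% called where 11.2% of all tested probes were, with a median log2 difference of -0.49. EREG, an EGF receptor ligand, read 1344, 1302 and 1355 on the alone arrays and 821, 808 and 801 on the mixed arrays (log2 difference -0.72, SE 0.0643, adjusted p = 0.0103). The summed intensity of the list was 85733 to 88096 alone and 72420 to 82609 mixed, without overlap, and DUSP6, which was not called (log2 difference -0.19, adjusted p = 0.205), made up the largest part of it. With the replicate block CCND1 was not called (adjusted p = 0.0633), whereas IER3 was called lower (adjusted p = 0.0377) and SPRED1 higher (adjusted p = 0.0491). With spike-in scaling EREG and EGR1 were the 2 called, and FOSL1, EPHA2 and CCND1 missed the threshold (adjusted p = 0.0522, 0.0502 and 0.0676). The part of any of these genes in the differences of the integrin, laminin and collagen genes was not tested.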

How the data were processed

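RNA of GFP-sorted MDCK RasV12 cells, grown alone or mixed with normal MDCK cells, was measured on 6 one-colour arrays. Groups and replicate numbers came from the sample labels. The authors deposited the scanner software's intensity for each spot (Agilent Feature Extraction 10.10.1.1), of which the background-subtracted, spatially detrended processed signal was used. A deposited table gives log2 values of 26529 probes. Each of its columns equals the log2 processed signal minus the array's 75th percentile to within 0.0773, and it served as an alternative. The platform design file and the aligner of its probes are not given in the sources used here.

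Controls and flagged outlier spots were dropped, replicate spots of a probe averaged, and each array's 75th percentile was subtracted on the log2 scale. Scaled intensity is this value brought back to the linear scale at the geometric mean of the percentiles, 639 units. Mixed and alone were compared by limma 3.58.1 (lmFit and eBayes, R 4.3.3) over the probes that were well above background throughout the alone or the mixed group, two-sided, with Benjamini-Hochberg adjustment over 26535 probes and a threshold of 0.05. Tables were handled with Python 3.11.15, pandas 2.3.3, numpy 2.4.6 and scipy 1.17.1, and plots drawn with matplotlib 3.10.9. In data simulated for this comparison over 26529 probes, of which 200 changed, the fit recovered 74% of 2-fold and 97% of 4-fold changes with 7 false calls. The simulated data held independent noise, no slide effect and no change under 2-fold. These figures therefore do not carry over to the smaller differences called here.

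The genes, lists and tests were chosen with earlier results of these data known. Named are all called genes of the group, a set of main chains whatever their result (ITGB1, ITGA2, ITGA3, ITGA6, ITGAV, ITGB3, ITGB6, ITGB8, LAMA3, LAMB3, LAMA5, LAMB1, LAMC1, COL4A1, COL4A2, COL17A1, COL1A1, COL3A1, FN1, SPARC, THBS1, TNC and LOX) and called genes of the 5 partner lists. Others were named after their values were seen. A gene that the name rule takes in is not reported here and enters no count of the group. Marker lists covered Ras-MAPK output, kidney epithelium, fibroblasts, endothelium and leukocytes.

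After removal of group means, arrays with the same replicate number correlated at 0.349, 0.162 and 0.296 over 26529 probes. Each was over 0.1, so a fit with the replicate number as a block was run as an alternative. The main fit held no block, and its calls ignore any pairing. The labels do not say that the numbers pair cultures. Alone replicate 2 correlated more with mixed replicate 3 (0.238) than with mixed replicate 2, and the number is also the position on the slide. Alternatives were quantile normalization, normexp background correction, other filters, the deposited table, the methods' t-test, a replicate block, spike-in scaling, leaving out each array, a 2-fold threshold and the mean over a gene's probes. The number of arrays limits the precision.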

Additional observations from a re-analysis of the deposited data

How the results depend on the processing

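The count of called genes among the 45 was 11, and lay between 9 and 13 with quantile normalization, normexp background correction, the filter on all 6 arrays, the deposited table and the mean over a gene's probes. It was 8 with the replicate block, where 8 of the 11 remained, and 7 with spike-in scaling. It fell to 6 with the methods' t-test after Benjamini-Hochberg adjustment (17 at an unadjusted p under 0.05), to 2 (ITGB8 and LAMA3) with a 2-fold threshold and to 1 (ITGB8) with no filter on dim probes. Without single arrays it ranged from 0 to 17. For the 56 tested partner genes, the count of 11 became 4 with the methods' t-test, 4 with spike-in scaling, 0 with the 2-fold threshold, 0 with no filter, and 0 to 21 without single arrays. Over the whole array, the 2978 calls became 826 with the methods' t-test, 935 with spike-in scaling, 300 at 2-fold and 12 with no filter, which tested 43603 probes, and ranged from 7 to 7335 without single arrays. Spike-in scaling also moved the split of array-wide calls to 284 higher and 651 lower, from 1459 and 1519. The replicate block gave 2825 array-wide calls and 9 partner genes, of which 7 were among the 11 and 2 (PXN and GPC1) were not, and changed no other call of the named members, at the probe kept, than those of ITGB3, COL12A1 and COL5A2. Over single named genes and settings, 334 values kept their direction and side of the threshold, 76 lost the call and 6 gained it, with 0 reversed. Settings that share the log2 difference of the main fit, such as the methods' t-test and the replicate block, could not reverse a direction. The cause of these shifts was not tested. The slide as a block was not run, because no slide carried both groups.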
